A study of Canis lupus familiaris with 6 samples.

Results

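The HOX cluster genes encode homeodomain transcription factors, and their signals were measured in RasV12-transformed kidney epithelial cells that had grown alone or among normal cells. The members were all non-control probes of the canine array whose gene name starts with HOXA, HOXB, HOXC or HOXD followed by a digit. These were 29 probes for 27 genes, of 43603 probes on the array. The rule used names only, but it was set with earlier results of these data known. The cells were MDCK cells, an epithelial line from dog kidney, carrying pTR GFP-RasV12, an oncogenic Ras fused to GFP that is expressed when tetracycline is added. The 3 RasV12 alone samples were cultured by themselves and the 3 RasV12 mixed samples together with normal MDCK cells, on collagen-coated dishes. All 6 samples received tetracycline for 24 h and were sorted for GFP before RNA was isolated, so RNA from normal neighbours entered only as far as the sort let it pass. The study's methods give 10 normal cells to 1 RasV12 cell, whereas a label of RasV12 mixed replicate 2 gives 100 to 1. One label text, on RNA extraction, speaks of cells with a truncated β-catenin, which the sample titles do not give. No label states that the replicates were separate cultures, so p-values measure the spread between these samples, and fewer cells of a kind and less RNA per cell cannot be told apart in bulk RNA.

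HOX genes lie in 4 clusters, HOXA to HOXD, and are sorted into 13 paralogue groups by their place in the cluster. In the embryo, genes at one end of a cluster (anterior, low group numbers) are switched on earlier and nearer the head than those at the other (posterior), and retinoic acid, Polycomb and Trithorax complexes and CTCF are textbook regulators of this order. HOX proteins bind DNA through the homeodomain, often with the cofactors of the PBX, MEIS and PKNOX families. Adult epithelia keep part of the HOX pattern of the body region they come from. In the mouse kidney, the paralogues of group 11 are needed together for the ureteric bud to form, and the Hoxb7 promoter is widely used to drive transgenes in the collecting duct.

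Each probe is a sequence of 60 bases, and several members are read where paralogues are most alike. The 7 sequences printed here include those of HOXA5, HOXC6, HOXD9 and HOXD12, whose values are described below. The others are HOXA6 and HOXA9, which form the closest pairs of probes with HOXA5 and HOXD9, and HOXC11, a kidney paralogue that was not well above background on any array. Apart from HOXC6, only probes that carry the motif described next were printed, so HOXA2 and HOXB7 are not among them. Capitals mark a motif of a conserved stretch in the DNA-recognition helix of the homeodomain, written codon by codon as TN, CAN, AAN and NG in direct succession, where N is any base. This motif was chosen after the probe sequences had been seen.
HOXA5: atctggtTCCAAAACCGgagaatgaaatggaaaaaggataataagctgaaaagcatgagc
HOXA6: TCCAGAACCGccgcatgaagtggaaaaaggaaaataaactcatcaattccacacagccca
HOXA9: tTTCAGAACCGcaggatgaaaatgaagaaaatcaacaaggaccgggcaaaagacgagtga
HOXC11: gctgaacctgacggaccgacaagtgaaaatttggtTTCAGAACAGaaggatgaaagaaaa
HOXD9: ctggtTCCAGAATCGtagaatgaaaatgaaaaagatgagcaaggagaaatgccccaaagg
HOXD12: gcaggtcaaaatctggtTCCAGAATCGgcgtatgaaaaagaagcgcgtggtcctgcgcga
HOXC6: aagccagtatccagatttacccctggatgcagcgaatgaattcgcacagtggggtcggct
On canFam3, the build of the array's annotation, these probes lie on the minus strand at chr14:40315672-40315731 (HOXA5), chr14:40319741-40319800 (HOXA6), chr14:40337999-40338058 (HOXA9), chr27:1287432-1287491 (HOXC11) and chr27:1234988-1235788 (HOXC6), and on the plus strand at chr36:19932059-19932118 (HOXD9) and chr36:19908327-19908386 (HOXD12). The HOXC6 probe matches over 801 genomic bases, that is, in pieces with a gap between them. Exon and UTR positions on this build were not used here.

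The motif was in 8 of the 29 HOX probes, all on the probe strand, against 2.08% of all 43603 probes on the probe strand and 4.29% on either strand. The other carriers were HOXA13 and HOXB13. Laid against each other without gaps, the 406 pairs of HOX probes shared a median of 20 of 60 bases at their best alignment. The 3 closest pairs were HOXA5 with HOXD9 at 40 identical bases, HOXA5 with HOXA6 at 36 and HOXA9 with HOXD9 at 35. Whether RNA of one paralogue bound the probe of another was not tested.

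Each RNA was labelled with Cy3 and put on its own array. On the 6 arrays, 60.8% to 66.4% of all probes were well above background by the scanner software's own criterion. Values below are scaled intensities, the processed signal brought to a common 75th percentile, or log2 differences of RasV12 mixed minus RasV12 alone. The RasV12 alone arrays shared a slide and the RasV12 mixed arrays shared another, so slide and culture cannot be told apart, and the number of arrays limits the precision. Of the 7 genes of an epithelial marker list, 5 were on the array and all 5 were well above background on 6 of 6 arrays, whereas COL3A1 of fibroblasts, PTPRC of leukocytes and CDH5 of endothelium were not well above background on any. Other genes of these lists gave signal, with 3 of 5 fibroblast genes, 1 of 4 leukocyte genes and 2 of 3 endothelial genes well above background on all 6 arrays. Of the kidney tubule list, 2 of the 3 genes on the array were well above background on 6 arrays and LHX1 on 0. Summed scaled intensities of RasV12 alone and RasV12 mixed were 346559 to 402429 and 366492 to 404607 for the epithelial list, 633 to 686 and 673 to 715 for the kidney tubule list, and 1059 to 1125 and 1152 to 1259 for the fibroblast list. The epithelial list held 1 called probe, for the junction protein OCLN, which was higher in RasV12 mixed by 0.41 on the log2 scale (limma, adjusted p = 0.0245). The other OCLN probe, at 0.33, was not called (limma, adjusted p = 0.0758). Of the 10 tested epithelial probes, 4 were higher and 6 lower, at a median log2 difference of -0.0069. Those for CDH1 had log2 differences of -0.36, -0.37 and -0.16, none called. The sums were 127 to 159 and 135 to 153 for the leukocyte list, and 599.7 to 674 and 644 to 693 for the endothelial list. The fibroblast sum of 18 probes was higher in RasV12 mixed with no overlap. Its largest part was a COL1A2 probe at 651, 631 and 611 in RasV12 alone and 752, 695 and 714 in RasV12 mixed (limma, adjusted p = 0.124). Of the 8 tested fibroblast probes, 5 were higher and 3 lower, with 0 called and a median log2 difference of 0.07. The part of the fibroblast sum in the HOX values was not tested.

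Most HOX probes gave signal in these cells. Of the 29 probes, 23 (21 genes) were well above background on all 6 arrays and 3 on none, and no HOX spot was saturated. Per array, 24 to 26 HOX probes were well above background. Among these members, taken by name, the clusters differed. All 10 HOXA probes, 8 of 9 HOXB probes and 5 of 6 HOXD probes were well above background on 6 arrays, and 0 of 4 HOXC probes. A HOXC8 probe under another name, not a member, was well above background on 6 of 6 arrays. By position, the members well above background on 6 arrays were 6 of 6 anterior probes (groups 1 to 3), 10 of 13 central probes (groups 4 to 8) and 7 of 10 posterior probes (groups 9 to 13). Probes well above background thus ran from HOXB1, a hindbrain gene that responds to retinoic acid in the embryo, to HOXA13 and HOXB13, genes of the urogenital tract and prostate. The HOXA13 probe was dim, at 18.8 to 34.0 over the 6 arrays. The HOXA13 and HOXB13 probes both carry the motif above, and binding of RNA from other paralogues was not tested.

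The 3 probes not well above background on any array were HOXC4, HOXC11 and HOXD11. HOXC4 gave scaled intensities of 2.96, 2.35 and 1.97 in RasV12 alone replicates 1 to 3 and 3.19, 2.77 and 2.80 in RasV12 mixed replicates 1 to 3. HOXD11 gave 3.48, 2.51 and 2.44 in RasV12 alone and 3.39, 2.93 and 2.98 in RasV12 mixed. HOXC11 gave 4.91, 12.1 and 10.5 in RasV12 alone and 9.12, 3.68 and 8.30 in RasV12 mixed. The groups overlapped for each of the 3 probes. HOXC11 and HOXD11 belong to the kidney-forming group 11, whose further member HOXA11 had no member probe. The lowest intensity well above background lay between 9.15 and 14.6 on an array before scaling, and the dim values of HOXC4 and HOXD11 do not show that their RNA was absent. HOXC11 met the scanner's looser criterion, a signal positive and significant against background, on 6 of 6 arrays, HOXD11 on 2 and HOXC4 on 0.

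The other 3 probes outside the 23 were near background. HOXC12 gave 13.9, 12.2 and 13.1 in RasV12 alone and 16.3, 22.2 and 17.7 in RasV12 mixed, and was well above background only on RasV12 alone replicate 3 and RasV12 mixed replicate 2. HOXB5, a central gene, gave 17.4, 13.4 and 14.2 in RasV12 alone and 22.8, 10.1 and 11.1 in RasV12 mixed, well above background on 3 and 1 arrays. HOXC6 was well above background on 2 RasV12 alone arrays and on 3 RasV12 mixed arrays. All RasV12 mixed values of HOXC12 were above the RasV12 alone values, whereas those of HOXB5 reached to both sides of them. HOXC12 was not tested, since a probe was tested only if all 3 arrays of 1 group or of both had it well above background.

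**Figure D1:**
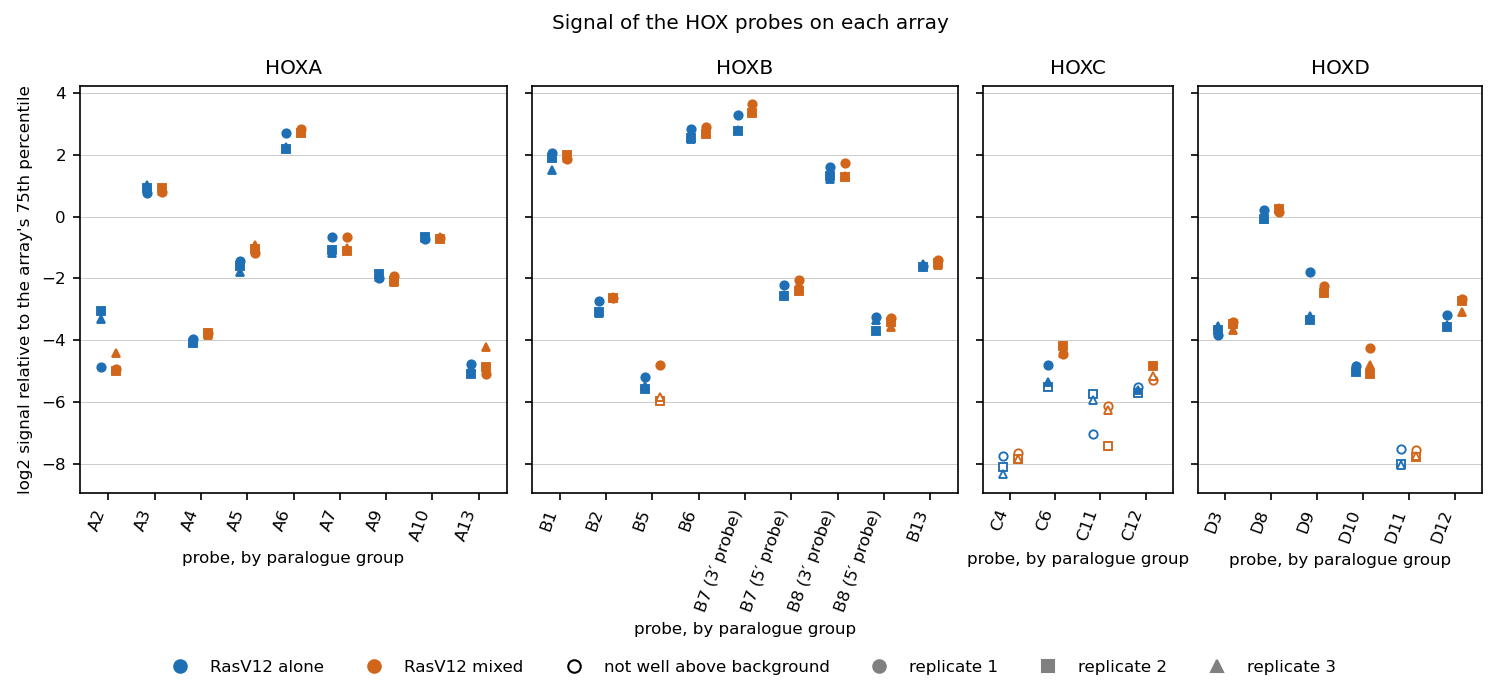
Log2 signal of 28 HOX probes relative to the array's 75th percentile (y axis), by cluster and paralogue group (x axis), for 3 RasV12 alone arrays (blue) and 3 RasV12 mixed arrays (orange), with open symbols where the spot was not well above background. The HOXA probes shown were all well above background, most open symbols are in HOXC, and heights of different probes cannot be set against each other, since probes differ in how well they bind.

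The plot of signals by cluster shows that for most probes the groups lie close together. Limma compared RasV12 mixed with RasV12 alone over 26535 probes, of which 25 were HOX probes. In this fit, which did not pair the arrays, HOXA5 and HOXC6 were higher in RasV12 mixed at an adjusted p under 0.05, and no HOX probe was lower. These 2 calls stand against 11.2% of all tested probes called in either direction and, by direction, 5.5% called higher and 5.72% lower. With the replicate number as a block neither was called, whereas HOXD12 and the 3′ probe of HOXB7 were, against 10.6% of all probes. The log2 differences ranged from -1.04 for HOXA2 to 0.87 for HOXC6, with a median of 0.17 against -0.0037 over all tested probes. The mean was higher in RasV12 mixed for 21 HOX probes and lower for 4, against 49.4% of all tested probes higher. Scaling to the array's spike-in controls moved the differences of HOX and other probes down together. With it 12 HOX probes were higher and 13 lower, at a HOX median of -0.00022 and an all-probe median of -0.17, so the count of higher probes depends on the scaling.

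For 8 of the 25 probes the groups were apart, all of them higher in RasV12 mixed, against 37.2% of all tested probes in either direction, 17.8% higher and 19.4% lower. They included HOXA4, HOXA5, HOXA6, HOXB2, the 3′ probe of HOXB7, HOXC6 and HOXD12. At an unadjusted p under 0.05 there were 7 HOX probes, against 31.4% of all. HOXC6 passed the filter on low signals through RasV12 mixed only and HOXB5 through RasV12 alone only, in each case the group with the higher mean. The HOXC6 call and its place among the 8 probes are therefore not independent of the filter. In a fit limited to probes well above background on 6 of 6 arrays, HOXA5 and HOXD12 were called, against 11.9% of those probes. This fit held 23 HOX probes, without HOXC6 and HOXB5.

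**Figure D2:**
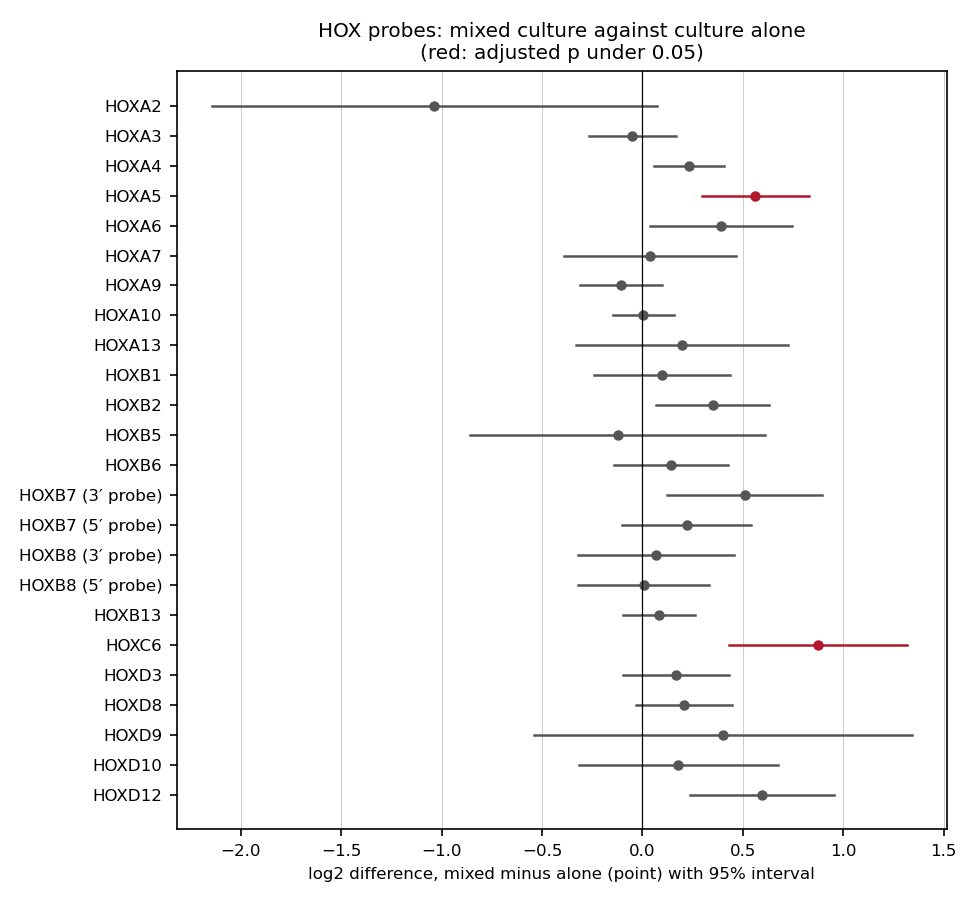
Log2 difference of RasV12 mixed minus RasV12 alone (x axis, points) with its 95% confidence interval (bars) for 24 tested HOX probes (y axis, by cluster and group), in red where limma's adjusted p was under 0.05. HOXA5 and HOXC6 are in red, 17 of these 24 intervals reach 0, and the widest intervals are those of HOXA2 and HOXD9. The fit was unpaired.

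HOXA5, a central gene known for its role in lung and airway development, had scaled intensities of 234, 208 and 186 in RasV12 alone replicates 1 to 3 and of 283, 309 and 334 in RasV12 mixed. Every RasV12 mixed array was above every RasV12 alone array. The log2 difference was 0.56 (SE 0.11, 95% interval 0.29 to 0.83, n = 3 and 3), or 1.47-fold, at an adjusted p of 0.0307 (limma). The call was lost with the replicate number as a block (adjusted p = 0.0570, limma) and with spike-in scaling (log2 difference 0.39, adjusted p = 0.103, limma). It was also lost without RasV12 alone replicate 2 or 3 or RasV12 mixed replicate 2 or 3 (adjusted p 0.104 to 0.120, limma), fits that called at most 24 probes in all.

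HOXC6, a central gene of thoracic patterning, had values of 22.6, 14.1 and 15.5 in RasV12 alone and of 29.5, 34.9 and 29.6 in RasV12 mixed. The groups did not overlap. RasV12 alone replicate 2, the lowest value, was not well above background, so the probe passed the filter through RasV12 mixed only. The log2 difference was 0.87 (SE 0.18, 95% interval 0.43 to 1.32), or 1.83-fold, at an adjusted p of 0.0350. After normexp background correction, which adds an offset to every signal and so weighs most on dim ones, the difference was 0.24 and the call was lost (adjusted p = 0.0674). At log2 differences of 0.87 the call was also lost with the replicate block (adjusted p = 0.0529) and with quantile normalization (adjusted p = 0.0556). It was lost without any single array other than RasV12 alone replicate 1, at log2 differences of 0.74 to 0.92 (adjusted p 0.0728 to 0.126), and 4 of these 5 fits called 7 to 24 probes in all.

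HOXD12, a posterior gene of limb and digit patterning, came closest to the threshold among the HOX probes not called. Its values were 69.7, 53.2 and 55.9 in RasV12 alone and 99.6, 95.8 and 75.1 in RasV12 mixed, and the groups did not overlap. The log2 difference was 0.60 (SE 0.15, 95% interval 0.24 to 0.96), or 1.51-fold, at an adjusted p of 0.0515. With the replicate block it passed (adjusted p = 0.0428).

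HOXB7 was measured by a probe nearer the 3′ end of the gene and another nearer its 5′ end. The 3′ probe gave 6289, 4345 and 4441 in RasV12 alone and 7879, 6580 and 6747 in RasV12 mixed, without overlap but with RasV12 alone replicate 1 close to the RasV12 mixed values. Its log2 difference was 0.51 (SE 0.16, 95% interval 0.12 to 0.89) at an adjusted p of 0.0883, and 0.0417 with the replicate block. The 5′ probe gave 137, 106 and 111 in RasV12 alone and 152, 120 and 140 in RasV12 mixed, and its groups overlapped. Its log2 difference was 0.22 at an adjusted p of 0.312, and the difference between the probes was not tested.

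**Figure D3:**
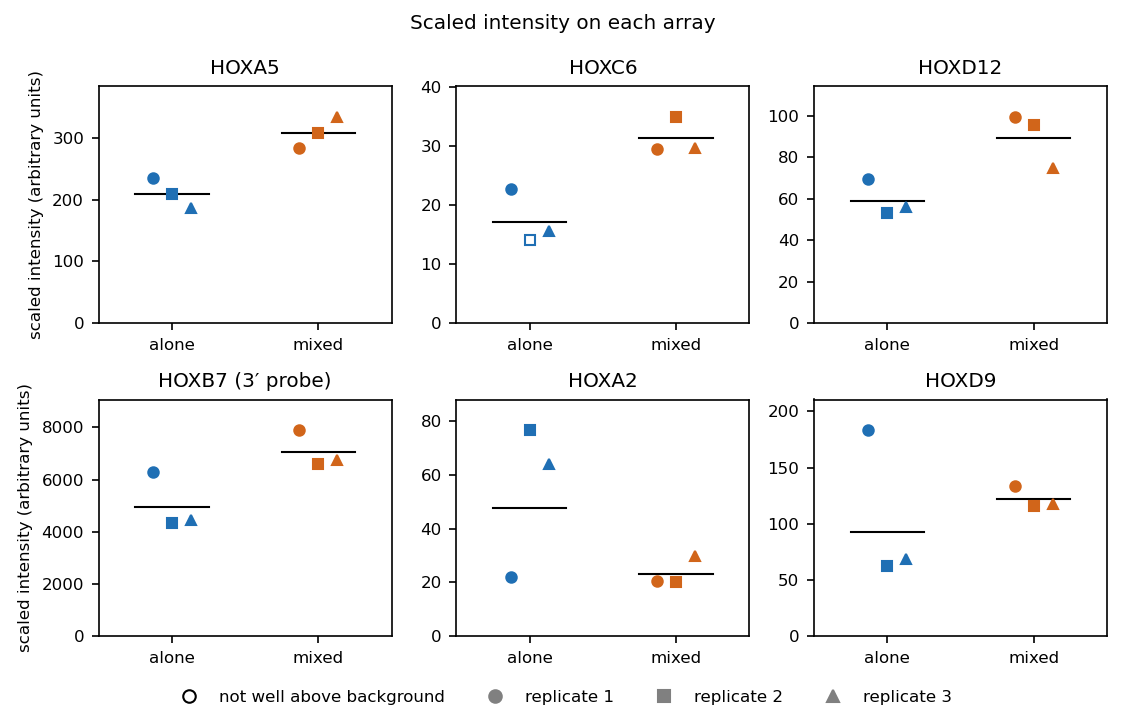
Scaled intensity (y axis, arbitrary units, from 0) on each RasV12 alone array (blue) and RasV12 mixed array (orange) for 6 HOX probes, with a line at the geometric mean of each group and an open symbol where the spot was not well above background. The groups are apart for HOXA5, HOXC6, HOXD12 and the HOXB7 3′ probe, whereas RasV12 alone replicate 1 stands away from the other RasV12 alone arrays for HOXA2 and HOXD9.

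For HOXA2 and HOXD9, RasV12 alone replicate 1 stood away from the other RasV12 alone arrays, as the plot of single probes shows. The values depended on which RasV12 alone arrays were kept. HOXA2, which patterns the hindbrain and the second pharyngeal arch, gave 22.0, 76.4 and 63.9 in RasV12 alone and 20.7, 20.1 and 30.0 in RasV12 mixed. RasV12 alone replicate 1 lay among the RasV12 mixed arrays and the other RasV12 alone arrays lay above them. The log2 difference was -1.04 (SE 0.46, 95% interval -2.14 to 0.07) at an adjusted p of 0.182, and without RasV12 alone replicate 1 it was -1.59 at an adjusted p of 0.00828. Leaving out RasV12 alone replicate 2 or 3 instead gave -0.69 or -0.82 (limma, adjusted p = 0.408 and 0.412).

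HOXD9, a posterior gene of the lower trunk and limbs, gave 183, 62.8 and 68.7 in RasV12 alone and 133, 116 and 118 in RasV12 mixed. RasV12 alone replicate 1 was the highest of the 6 arrays and the other RasV12 alone arrays were the lowest. The log2 difference was 0.40 (SE 0.39, 95% interval -0.54 to 1.34) at an adjusted p of 0.528, and without RasV12 alone replicate 1 it was 0.89 at an adjusted p of 0.00568. Without RasV12 alone replicate 2 or 3 it was 0.12 or 0.19 (adjusted p = 0.880 and 0.836).

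Leaving out RasV12 alone replicate 1 changed the HOX calls most. There were then 10 called HOX probes, 9 higher and 1 lower, against 26.4% of all 27757 probes tested in that fit. The 9 higher probes were HOXA4, HOXA5, HOXA6, HOXB2, the 3′ probe of HOXB7, HOXC6, HOXD8, HOXD9 and HOXD12, and the lower one was HOXA2. Without RasV12 mixed replicate 1, HOXA5 alone was called, against 7.46% of all probes. No HOX probe was called without RasV12 alone replicate 2 (0.09% of all probes called) or 3 (0.0263%), or without RasV12 mixed replicate 2 (0.0338%) or 3 (0.045%). With the replicate block the called HOX probes were HOXD12 and the 3′ probe of HOXB7, against 10.6% of all probes, and with spike-in scaling HOXC6, against 4.44%.

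**Figure D4:**
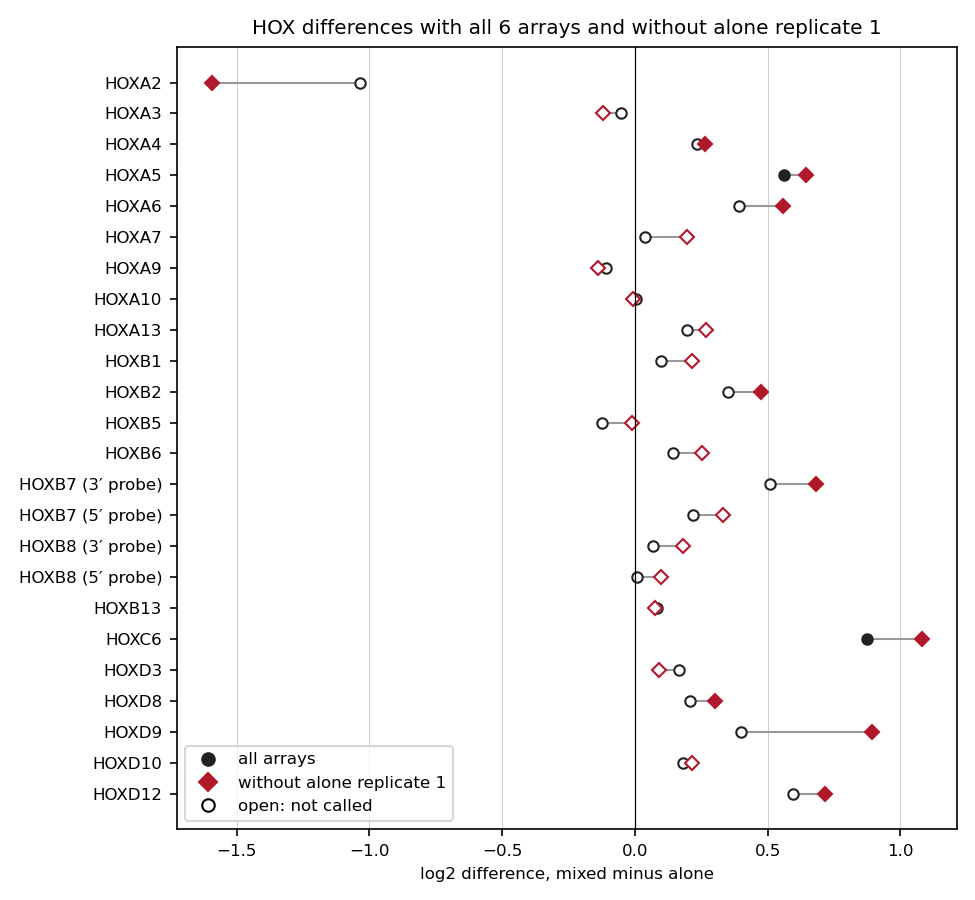
Log2 difference of RasV12 mixed minus RasV12 alone (x axis) for 24 tested HOX probes (y axis), with all 6 arrays (black circles) and without RasV12 alone replicate 1 (red diamonds), filled where limma's adjusted p was under 0.05. HOXA2 moves from -1.04 to -1.59 and HOXD9 from 0.40 to 0.89, and filled symbols go from 2 to 10. Both fits were unpaired.

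The other HOXA probes described here did not pass the test. HOXA6, a central gene, gave 4192, 2890 and 3028 in RasV12 alone and 4580, 4201 and 4293 in RasV12 mixed, without overlap, with a log2 difference of 0.39 (adjusted p = 0.131). HOXA4 gave 41.1, 37.3 and 39.5 in RasV12 alone and 47.2, 46.7 and 44.5 in RasV12 mixed, also without overlap, with a log2 difference of 0.23 (adjusted p = 0.0861). HOXA10, a gene of uterine development, gave 386, 400 and 393 in RasV12 alone and 395, 388 and 400 in RasV12 mixed. Its groups overlapped almost fully, and the 95% interval of its log2 difference was -0.15 to 0.16. HOXA3, HOXA7, HOXA9 and HOXA13 had log2 differences between -0.11 and 0.20 with overlapping groups, HOXA9 being a regulator of blood cell formation and HOXA3 of thymus and parathyroid.

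Among the HOXB probes, HOXB2 of the hindbrain group gave 96.8, 74.8 and 74.1 in RasV12 alone and 103, 102 and 105 in RasV12 mixed. The RasV12 mixed arrays lay within a narrow range above RasV12 alone, and the log2 difference was 0.35 (adjusted p = 0.0998). HOXB1, HOXB6, HOXB13 and both HOXB8 probes had log2 differences between 0.01 and 0.14 with overlapping groups and adjusted p from 0.451 to 0.978. HOXB5 had a log2 difference of -0.12 (adjusted p = 0.816). No HOXB probe was called, and the median over the 9 tested HOXB probes was 0.10.

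The 5 tested HOXD probes had log2 differences of 0.17 to 0.60 and none was called. HOXD8 gave 736, 606 and 606 in RasV12 alone and 712, 754 and 776 in RasV12 mixed, overlapping at RasV12 alone replicate 1, with a log2 difference of 0.21 (adjusted p = 0.209). HOXD3 and HOXD10 overlapped between groups, at 0.17 (adjusted p = 0.348) and 0.18 (adjusted p = 0.595). By cluster, the median log2 difference was 0.07 for HOXA, 0.10 for HOXB and 0.21 for HOXD, and HOXC had a single tested probe. By position it was 0.10 for anterior, 0.21 for central and 0.18 for posterior probes. These medians were not tested against each other. The median SD within groups was 0.19 for HOX probes and 0.13 for all tested probes. The 95% interval stayed within a log2 difference of 1 either way for 22 of the 25 probes and within 0.5 for 13.

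Of the 38 HOX genes in a RefSeq table of the dog (assembly UU_Cfam_GSD_1.0, used for names only), 27 had a member probe. The 11 without were HOXA11, HOXB3, HOXB4, HOXB9, HOXC5, HOXC8, HOXC9, HOXC10, HOXC13, HOXD1 and HOXD13. Between the outermost HOX probes, the clusters spanned 105 kb (HOXA, chromosome 14), 166 kb (HOXB, chromosome 9), 94.3 kb (HOXC, chromosome 27) and 69.1 kb (HOXD, chromosome 36) of canFam3. Within these spans lay 23 probes under other names, 13 on the strand of the HOX genes and 10 on the opposite strand. Of these, 15 were well above background on all 6 arrays, 8 of them on the opposite strand, and 7 were so on none. All 15 were tested and 0 were called by limma, against 11.2% of all tested probes. Their log2 differences ran from -0.54, at chr27:1299939-1299998, to 0.54, at chr14:40345432-40345491, both opposite in strand to the HOX genes.

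In 3 cases an accession of such a probe belongs to a HOX gene. A probe for HOXA4 at chr14:40302138-40302197 had a log2 difference of -0.04 (adjusted p = 0.817), against 0.23 for the HOXA4 member probe. A probe for HOXC8 at chr27:1252898-1252957 was well above background on 6 of 6 arrays, unlike any HOXC member, with a log2 difference of 0.12 (adjusted p = 0.426). A probe for HOXC5 was well above background on 1 array.

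The cofactors through which HOX proteins bind DNA were 9 genes, all on the array, of which 5 were tested with 8 probes. With 4 probes higher and 4 lower in RasV12 mixed, 0 were called by limma against 11.2% of all probes. After quantile normalization 1 was called, against 2989 of all 26535 tested probes. At an unadjusted p under 0.05 in the methods' t-test 2 were called, against 7315 of all 26535. MEIS2, a partner of HOX and PBX proteins, gave 227, 278 and 269 in RasV12 alone and 178, 194 and 205 in RasV12 mixed, without overlap, at a log2 difference of -0.42 (SE 0.11) and an adjusted p of 0.0517. With the replicate block, MEIS2 (adjusted p = 0.0419) and 1 of the 2 MEIS1 probes (log2 difference -0.54, adjusted p = 0.0456, against 0.321 without the block) were called lower. That fit called 10.6% of all probes. The PBX3 probes had log2 differences of 0.30 and 0.34 and were not called. MEIS3 and PKNOX2 were not well above background on any array.

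Of 47 genes that regulate HOX clusters (Polycomb, Trithorax, retinoic acid, CDX genes and CTCF), 38 were on the array and 30 were tested with 56 probes. The median log2 difference was 0.11, with 40 probes higher and 16 lower against 49.4% of all probes higher, and 4 probes were called higher and 2 lower against 5.5% and 5.72% of all probes. With spike-in scaling the median was -0.056, against -0.17 over all probes, with 0 called higher and 1 lower. BMI1, a Polycomb protein, rose at both probes by 0.50 and 0.60 (adjusted p = 0.0328 and 0.0324). KDM6A, which removes the Polycomb mark, rose at 1 of 3 probes by 0.54 (adjusted p = 0.0222), and the others had log2 differences of 0.58 and 0.45 (adjusted p = 0.0515 and 0.0521). CTCF, which binds cluster boundaries, rose at 1 of 4 probes by 0.32 (adjusted p = 0.0488). KDM6B, a relative of KDM6A, fell by 0.36 and EED, a Polycomb subunit, fell by 0.31 on the log2 scale (both adjusted p = 0.0447). With the replicate block 3 probes were called, of KDM6A, KDM6B and CYP26B1, against 10.6% of all probes. RARB, RXRG, ALDH1A2, CYP26A1 and CDX4 were not well above background on any array.

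Of 17 tested probes for output genes of the Ras-MAPK pathway, 11 were lower and 6 higher in RasV12 mixed, at a median log2 difference of -0.31. Over all tested probes the median was -0.0037, with 49.4% higher. Both EGR1 probes rose (0.67 and 0.77) and CCND1 (-0.59), EPHA2 (-0.71) and FOSL1 (-0.52) fell, at adjusted p from 0.0157 to 0.0366 (limma), against 11.2% of all probes called. With the replicate block 7 probes were called, both of EGR1, both of IER3 (-0.49 and -0.46), and those of SPRED1 (0.39), EPHA2 and FOSL1, but not CCND1. That fit called 10.6% of all probes. The summed scaled intensity of the list was 127601 to 131197 in RasV12 alone and 105923 to 120117 in RasV12 mixed. Its largest part was a DUSP6 probe at 58786, 55484 and 57699 in RasV12 alone and 55252, 45550 and 50405 in RasV12 mixed (limma, adjusted p = 0.205). The DUSP6 probes had log2 differences of -0.31, -0.34, -0.19 and -0.26, and none was called in the unpaired limma fit. The part of the summed intensity in the HOX values was not tested.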

How the data were processed

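The authors deposited, for each of the 6 arrays, the scanner output of Agilent Feature Extraction 10.10.1.1 with an intensity per spot, corrected for background, and a table of log2 values. After a constant per array was removed, its 26529 probes differed from the values used here by at most 0.077 on the log2 scale on 1 array and 0.018 on the others.

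Spots of controls or with an outlier flag (6 to 12 per array) were left out, spots of 1 probe were averaged, and log2 processed signals were taken minus the array's 75th percentile (592 to 699.6 units of intensity). Probes that all 3 arrays of either group had well above background were tested by limma 3.58.1 (R 4.3.3; lmFit, eBayes, two-sided, Benjamini-Hochberg over 26535 probes, threshold 0.05). Samples were grouped by their titles. The procedure was also run on simulated arrays with noise drawn independently for each probe and array. That run held no slide or pairing, so it cannot show how the calls hold under either. Tables were handled with Python 3.11.15 and pandas 2.3.3.

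HOX probes were taken by name, and members, gene lists and the motif were chosen with earlier results of these data known. Some genes are not reported here by name, though they are part of the counts. Every other HOX gene with a tested probe could be named with values, as could each tested cofactor and each called gene of the other lists. Further genes of the lists were named after their values were seen. They were named for uncalled probes, for a large part in a summed intensity or for not being well above background. After removing group means, same-numbered arrays correlated at 0.349, 0.162 and 0.296 over 26529 probes. RasV12 alone replicate 2 correlated more with RasV12 mixed replicate 3 (0.238) than with its own number. RasV12 alone replicate 3 correlated with RasV12 mixed replicate 2 at 0.089. The numbers were treated as a possible pairing in the replicate block only, and the main fit, with its calls and intervals, was unpaired. The number is also the array's position on its slide. Slide could not be used as a block because it coincides with the group. The alternatives were the replicate block, normexp (offset 50), quantile normalization, scaling to 7 spike-in controls, the deposited table, a filter that asked for all 6 arrays or none at all, a 2-fold threshold, the methods' t-test and leaving out each array.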

Additional observations from a re-analysis of the deposited data

How the results depend on the processing

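The count of called HOX probes was 2 of 25 tested with all arrays, against 2978 over all 26535 tested probes. It was 1 with quantile normalization (2989 over all probes), 1 with spike-in scaling (1178) and 0 without a filter on low signals (12). In the methods' t-test it was 0 after Benjamini-Hochberg adjustment (826) and 4 unadjusted (7315). At a 2-fold threshold it was 0 (300), and 0 to 10 when single arrays were left out (7 to 7335). The pairing of replicate numbers as a replicate block gave 2 HOX calls, of the HOXB7 3′ probe and HOXD12 in place of HOXA5 and HOXC6.
For the HOX cofactors, 0 calls became 1 with quantile normalization, 1 with the filter for all 6 arrays, 2 with the replicate block, 2 in the unadjusted t-test and 0 to 3 when single arrays were left out. For the HOX regulators, 6 calls became 13 with normexp, 0 without a filter, 3 with the replicate block, 1 with spike-in scaling, 1 and 20 in the t-test adjusted and unadjusted, 0 at 2-fold and 0 to 17 without single arrays. For the Ras-MAPK genes, 5 calls became 0 without a filter, 3 with spike-in scaling, 2 and 8 in the t-test, 0 at 2-fold and 0 to 7 without single arrays. Over all probes, 2978 calls became 2989 with quantile normalization, 3973 with normexp, 3039 with the filter for all 6 arrays and 2825 with the replicate block. They became 12 without a filter, 1178 with spike-in scaling (327 higher and 851 lower, against 1459 and 1519), 826 and 7315 in the t-test, 300 at 2-fold and 7 to 7335 without single arrays.
Of 382 single HOX values over 16 alternatives, 321 kept direction and side of the threshold, 20 lost a call, 14 gained one and 27 changed sign, all of these uncalled. With spike-in scaling, log2 differences were -0.13 for HOXA7, -0.16 for HOXA10, -0.070 for HOXB1, -0.025 for HOXB6, -0.10 and -0.16 for the 3′ and 5′ probes of HOXB8, -0.085 for HOXB13 and -0.00022 for HOXD3. With quantile normalization they were -0.013 for HOXA10 and -0.024 for the HOXB8 5′ probe, which had -0.0021 with normexp. Without single arrays they ran from -0.12 to 0.0056 for HOXA3, -0.10 to 0.20 for HOXA7, -0.0077 to 0.018 for HOXA10, -0.049 to 0.38 for HOXA13, -0.056 to 0.21 for HOXB1, -0.49 to 0.092 for HOXB5, -0.085 to 0.18 and -0.12 to 0.097 for the 3′ and 5′ probes of HOXB8, and -0.054 to 0.37 for HOXD10. The cause of these changes was not tested. The 23 HOX probes well above background on all arrays were 27 by the scanner's looser criterion (signal positive and significant) and 23 to 24 without single arrays. Signal over background limits HOXC4, HOXC11, HOXC12, HOXD11, HOXB5 and HOXC6, and slide was not run as a block because it coincides with the group.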
